A study of Mus musculus with 17 samples.

Results

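The genes described here are 10 regulators and targets of the oncofetal RNA programme, out of 23284 genes in the count tables. They are Igf2bp1, Igf2bp2, Igf2bp3, Lin28a, Lin28b, Hmga1, Hmga2, Igf2, H19 and Dlk1, and each was found by its symbol. They were chosen by name as parts of 1 pathway, with earlier results of these data known, and the sets of tumours in which they are compared were chosen by the measured Pomc and Calca counts. RNA was sequenced from 17 mouse tumours that the labels call neuroendocrine tumours of the pituitary. Of these, 9 were labelled Rb1/Trp53 (engineered alleles of the retinoblastoma gene and of the p53 gene) and 8 were labelled Rb1/Trp53/Crebbp, called Crebbp-labelled below, so that all 17 share the Rb1 and Trp53 alleles. Crebbp encodes a histone acetyltransferase and transcriptional coactivator, and the comparison asks how the Rb1/Trp53 tumours differ when that gene is targeted too. The labels do not give the promoter or Cre that made the alleles, the deleted exons, the age of the mice or whether each tumour is from its own mouse. The p-values therefore cover no more than the scatter of these 17 samples.

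The tumours were kept in 2 sets by the hormone gene that led them. A library was called Pomc-high when its Pomc count was above its Calca count (6 Rb1/Trp53 tumours, numbers 2 and 5 to 9, and 4 Crebbp-labelled tumours, numbers 5 to 8). The others were called Calca-high (3 Rb1/Trp53 tumours, numbers 1, 3 and 4, and 4 Crebbp-labelled tumours, numbers 1 to 4). No library lay near the threshold: the ratio of Pomc to Calca counts was at least 439 in the Pomc-high set and at most 9.63e-04 in the Calca-high set. Because the sets were made from counts of the same libraries, levels are compared between them with no test.

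IGF2BP proteins (IGF2 mRNA-binding proteins) hold target mRNAs in cytoplasmic granules and influence their stability, transport and translation. LIN28 proteins bind precursors of the let-7 microRNAs and block their maturation, while mature let-7 represses mRNAs with matching sites, among them those of Lin28a, Lin28b, Hmga2 and IGF2BP genes. HMGA proteins bend AT-rich DNA, Igf2 and H19 are neighbours in an imprinted domain, and Dlk1 is an imprinted gene of another domain. Many of these genes are high in embryonic tissue, low in most adult tissues and high again in some tumours.

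The let-7 sequence is shown first because it is what the LIN28 proteins act on and what several members have in their own mRNAs. The mature microRNAs are given 5′ to 3′ with the seed, bases 2 to 8, in capitals, from RefSeq (GRCm38.p6). The 4 shown have the same seed and differ outside it.
mmu-let-7a-5p: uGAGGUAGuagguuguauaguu
mmu-let-7b-5p: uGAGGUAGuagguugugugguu
mmu-let-7g-5p: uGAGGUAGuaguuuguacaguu
mmu-let-7i-5p: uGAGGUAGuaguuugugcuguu
The poly(A)-selected libraries do not measure mature microRNAs, so the level of let-7 is not known here.

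The 7 letters CTACCTC, the match to that seed, were searched on the sense strand of the 3′ UTRs of GENCODE vM21 (GRCm38). The motif was present in 7 of the 9 members that have a 3′ UTR. Igf2bp1, Hmga2 and Lin28b had 4 matches each, Lin28a had 2, Igf2bp2, Igf2bp3 and Hmga1 had 1 each, and Igf2 and Dlk1 had 0. Of 13363 genes with a 3′ UTR 10.5% had a match, and of the 4070 with a 3′ UTR of at least 2000 bases 20.5% had one. Members were chosen as known parts of this pathway, so the share is a description. The windows of 30 bases below, with the match in capitals, show 1 site for each of 6 members, so that the same 7 letters can be seen in different surroundings.
Igf2bp1: cagtgctattaaCTACCTCagccccagagg
Igf2bp2: cacaaataaaagCTACCTCaggtgtttttt
Igf2bp3: atttttactcaaCTACCTCaggtattcagt
Lin28a: cagcctgttgaaCTACCTCatttttgccga
Lin28b: cgggcgggaagtCTACCTCatgcaagcaca
Hmga2: cactcctcaataCTACCTCtgaatgctaca
A match is a description of the sequence and not evidence that the site was used in these tumours.

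The promoter windows below run from 250 bases before to 50 bases after the RefSeq start site (GRCm38.p6), and they belong to the 3 RNA-binding protein genes on which the results below turn. Each is printed 5′ to 3′ on the strand of its gene. Igf2bp2 is on the minus strand at chr16:22163250-22163549, Lin28a on the minus strand at chr4:134018767-134019066 and Lin28b on the minus strand at chr10:45470152-45470451. Capitals mark the GC box GGGCGG, the E-box CACGTG and the CRE core TGACG, each searched on both strands.
Igf2bp2: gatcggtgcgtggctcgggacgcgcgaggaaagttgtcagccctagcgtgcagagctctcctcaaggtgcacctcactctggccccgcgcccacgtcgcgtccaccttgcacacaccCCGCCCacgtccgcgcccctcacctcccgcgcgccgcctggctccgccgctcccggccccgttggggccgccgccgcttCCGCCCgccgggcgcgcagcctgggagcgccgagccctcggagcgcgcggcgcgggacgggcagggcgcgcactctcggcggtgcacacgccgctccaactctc
Lin28a: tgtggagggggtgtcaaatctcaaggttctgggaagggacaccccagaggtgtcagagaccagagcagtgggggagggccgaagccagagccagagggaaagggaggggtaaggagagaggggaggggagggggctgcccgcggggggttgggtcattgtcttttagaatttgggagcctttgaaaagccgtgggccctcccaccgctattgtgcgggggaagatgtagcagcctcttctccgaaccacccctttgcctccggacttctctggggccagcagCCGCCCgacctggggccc
Lin28b: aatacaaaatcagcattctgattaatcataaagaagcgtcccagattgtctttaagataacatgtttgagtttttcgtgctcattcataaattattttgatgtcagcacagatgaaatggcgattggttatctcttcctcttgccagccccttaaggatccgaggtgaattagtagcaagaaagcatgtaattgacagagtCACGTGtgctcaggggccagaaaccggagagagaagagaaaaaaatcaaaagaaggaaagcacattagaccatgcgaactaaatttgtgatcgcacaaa
The Igf2bp2 window was 76.7% G and C with 2 GC boxes, the Lin28a window 63.3% with 1 GC box, and the Lin28b window 39.0% with 1 E-box. The GC box was in 35.7%, the E-box in 7.15% and the CRE core in 20.8% of 32851 mouse promoter windows of the same length. The full CRE, TGACGTCA, the site read by the factor after which CREBBP is named, holds that core and was in 1.79% of windows. It was in 0 of the windows of the 8 members that have one (Igf2bp1 and H19 have none), and nothing about the factor follows from its absence in 300 bases.

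The libraries held between 8328297 and 28140755 counts on genes. Levels are CPM, counts scaled to a common total by the TMM method so that libraries with a few very abundant genes remain comparable. The labelled organ was checked against markers: Tbx19 and Pax7, which encode factors that direct the Pomc lineages of the pituitary, were at 305 to 418 CPM and 125 to 298 CPM in the Pomc-high libraries and at no more than 0.32 and 0.18 CPM in the Calca-high ones. Nkx2-1 and Ret, which thyroid C cells express, stood at 188 to 331 CPM and 126 to 427 CPM in the Calca-high libraries, which therefore go against their pituitary label. Of the other listed markers of these cells, Drd2 and Crhr1 were higher in the Pomc-high and Calcb and Gfra4 in the Calca-high tumours of each genotype. Pcsk2 did not separate the sets among the Rb1/Trp53 tumours (medians 7297 CPM in Pomc-high and 7130 CPM in Calca-high). Neurod1 and the C cell marker Cckbr were low throughout, and their highest levels, 1.22 and 1.62 CPM, were in Pomc-high tumours. The Crebbp count covers the whole gene and does not check the allele, because the deleted part is not given. It was 42.8 to 62.1 CPM against 39.7 to 116 CPM in the Pomc-high Crebbp-labelled and Rb1/Trp53 tumours (log2 fold change -0.47 ± 0.23 SE, edgeR adjusted p = 0.239). Among Calca-high tumours it was higher in the Crebbp-labelled tumours, 67.3 to 93.3 CPM against 48.2 to 55.6 CPM (0.60 ± 0.12, edgeR adjusted p = 0.00723), so the genotype rests on the labels alone.

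Across the members, 9 of the 10 could be tested for a genotype difference in the Pomc-high set. Lin28a and Igf2bp2 passed in it (adjusted p under 0.05 in edgeR's quasi-likelihood test, corrected over all tested genes by the Benjamini-Hochberg method), both lower in the Crebbp-labelled tumours, against 8.42% of all 14010 genes tested in either direction and 5.26% lower. Among Calca-high tumours 8 members could be tested, and Igf2bp2 and Igf2 passed, both lower, against 36.2% of 14797 genes in either direction and 17.1% lower. With 2 of 8 called, nothing is read from this count. The members' median log2 fold change was 0.11 among Pomc-high and -0.28 among Calca-high tumours, beside 0.01 and -0.02 over all tested genes. Without regard to set, 0 of 9 members passed over all 17 tumours in edgeR, against 3.86% of 14338 genes in either direction, while 2 had an unadjusted p under 0.05, DESeq2 called 1 and limma-voom 0.

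Between the sets, differences were common among all genes. Among the Rb1/Trp53 tumours 4 members were higher and 3 lower in the Pomc-high set with no overlap of the ranges, and 3 overlapped. Of 15432 genes 48.6% had no overlap in either direction. The 3 lower members include Igf2bp1, at 0 to 3 counts in the Pomc-high against 9 to 17 in the Calca-high tumours. Its low counts kept Igf2bp1 out of the 15432 genes, so the shares are only a rough background for counts that include it. Among the Crebbp-labelled tumours 3 members were higher, 2 lower and 5 overlapped, against 47.9% of genes without overlap. Over both genotypes Lin28b and Igf2 alone had ranges that did not overlap, both higher in the Pomc-high set, against 22.6% in either direction and 11.0% higher. Between the genotypes, 2 members did not overlap in the Pomc-high set, both lower (9.07% of genes in either direction and 5.46% lower), and 4 did not in the Calca-high set (43.4%), the last counting Igf2bp1 and Lin28b at a few reads.

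Igf2bp2, which encodes a reader of methylated mRNA that binds Igf2 and many metabolic transcripts, was lower in the Crebbp-labelled tumours of both sets. In the Pomc-high Rb1/Trp53 tumours it ranged from 3.73 to 6.003 CPM with a median of 5.15 CPM, and in the 4 Crebbp-labelled ones it was 2.002, 0.81, 1.54 and 1.46 CPM. All 4 Crebbp-labelled values, which rest on 11 to 19 counts, lay below all 6 of the others. The fold was 3.42 lower (log2 fold change -1.77 ± 0.28 SE, edgeR quasi-likelihood test, adjusted p = 0.00237).

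In the Calca-high set Igf2bp2 was 20.2, 21.1 and 25.9 CPM in the Rb1/Trp53 tumours and 4.22, 5.62, 5.49 and 5.74 CPM in the Crebbp-labelled ones. The groups again did not overlap, and the fall was 4.17-fold (log2 fold change -2.06 ± 0.16 SE, edgeR adjusted p = 5.84e-04). The difference between the 2 sets in this genotype effect was -0.28 ± 0.31 on the log2 scale (edgeR interaction, adjusted p = 0.566), so a difference in its size was not detectable. With the set as a term of 1 fit over all 17 tumours the genotype difference was -1.94 ± 0.16 (edgeR adjusted p = 1.54e-06, where 18.0% of all genes passed in either direction), and without that term it was -1.68 ± 0.52 (edgeR adjusted p = 0.0746).

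Igf2bp2 also differed between the sets within each genotype. Its median in the Pomc-high tumours was 4.09 times lower than in the Calca-high tumours among the Rb1/Trp53 tumours and 3.71 times lower among the Crebbp-labelled ones, with no overlap in either. The Crebbp-labelled Calca-high tumours and the Rb1/Trp53 Pomc-high tumours stood at about the same level, 4.22 to 5.74 CPM and 3.73 to 6.003 CPM, so over both genotypes the sets overlapped.

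Igf2bp1, the embryonic family member that binds beta-actin and Myc mRNA, was close to absent. It had 17, 12 and 9 counts in the Calca-high Rb1/Trp53 tumours, 1, 2, 0 and 4 in the Calca-high Crebbp-labelled tumours, and 0 to 3 in the 10 Pomc-high tumours. A count of 0, found in 6 of its 17 libraries, allows a level of up to 0.198 to 0.343 CPM on gene totals without the TMM scaling. The 3 Calca-high Rb1/Trp53 tumours held the highest counts. Summed and divided by depth, they had 3.99 times the rate of the Calca-high Crebbp-labelled tumours (95% interval 1.76 to 10.6) and 10.6 times that of the Pomc-high Rb1/Trp53 tumours (3.80 to 40.7), where the exact intervals cover counting error only. The gene passed the filter on low counts in none of the fits. When it was kept in the Calca-high fit its log2 fold change was -2.16 (edgeR adjusted p = 0.0507).

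Igf2bp3, the family member most often described in carcinomas, was low in every tumour. It ranged from 0.78 to 2.04 CPM in the Pomc-high Rb1/Trp53 tumours (median 1.28 CPM). The Pomc-high Crebbp-labelled tumours had 1.90, 2.21, 1.43 and 1.38 CPM. The Calca-high tumours had 0.641, 1.06 and 1.10 CPM and, with the Crebbp label, 1.58, 0.794, 0.766 and 1.18 CPM. All 4 groups overlapped, and the genotype difference was 0.42 ± 0.32 for Pomc-high and 0.20 ± 0.39 for Calca-high tumours (log2, edgeR adjusted p = 0.440 and 0.718). Of the 2 family members that could be tested, Igf2bp2 passed in both sets and Igf2bp3 in neither.

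**Figure D1:**
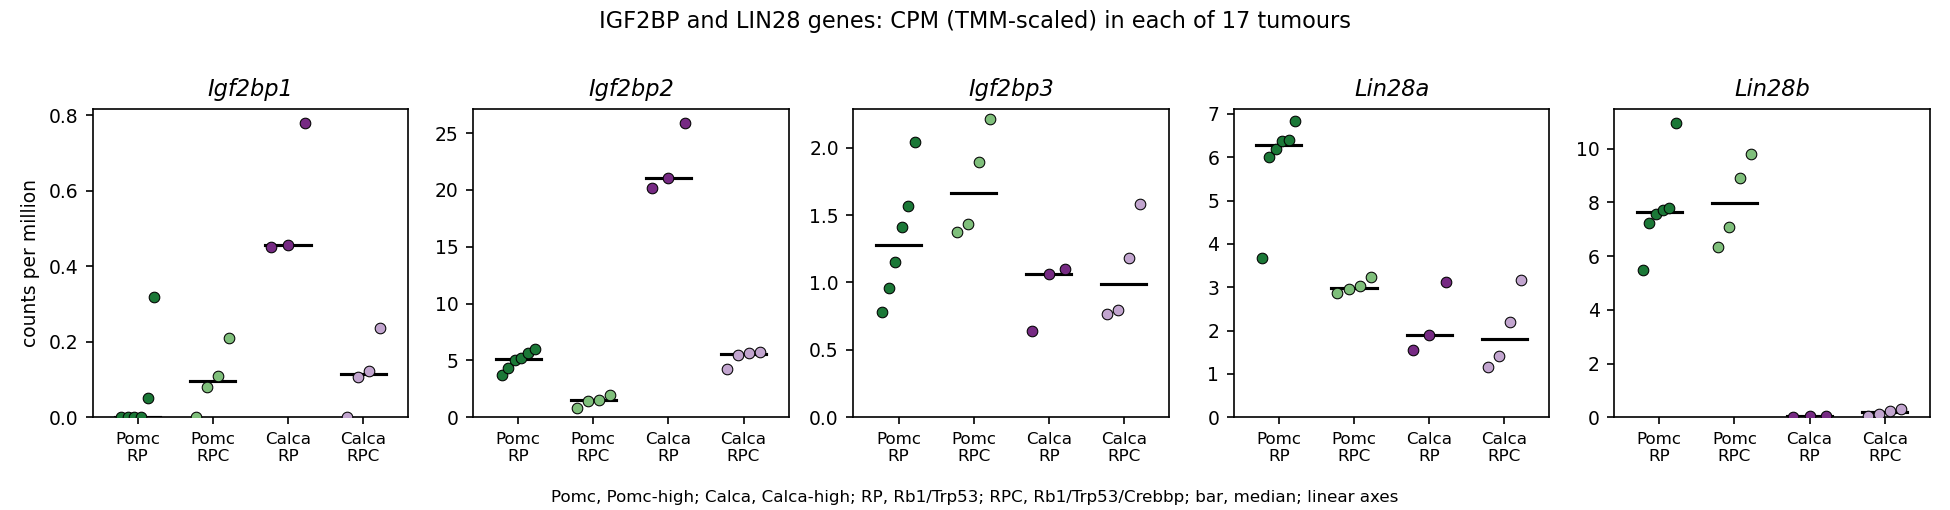
Level in CPM (linear axis, its own scale for each gene) of the 5 genes for IGF2BP and LIN28 proteins in each of 17 tumours, by set and genotype (RP, Rb1/Trp53; RPC, Rb1/Trp53/Crebbp). Points are tumours and bars are medians: Igf2bp2 steps down with the Crebbp label in both sets, Lin28a does so in the Pomc-high set, and Lin28b is near 0 in the 7 Calca-high tumours.

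Lin28a, whose protein recruits uridylyl transferases to let-7 precursors, was lower in the Pomc-high Crebbp-labelled tumours. It ranged from 3.68 to 6.83 CPM in the Pomc-high Rb1/Trp53 tumours (median 6.28 CPM) and was 2.95, 3.02, 2.86 and 3.24 CPM in the Crebbp-labelled ones. The groups did not overlap, although Rb1/Trp53 tumour 8, at 3.68 CPM, came close. The log2 fold change was -0.95 ± 0.21 SE, a 1.93-fold fall (edgeR adjusted p = 0.0153).

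In the Calca-high set Lin28a was 3.11, 1.90 and 1.55 CPM in the Rb1/Trp53 tumours and 3.16, 1.41, 1.15 and 2.19 CPM in the Crebbp-labelled ones. These overlapped throughout (-0.15 ± 0.43, edgeR adjusted p = 0.807). The difference between the sets in the genotype effect was 0.81 ± 0.44 (edgeR interaction, adjusted p = 0.188), so an effect particular to the Pomc-high set was not shown. Among Rb1/Trp53 tumours the Pomc-high median was 3.31 times the Calca-high one with no overlap. Among Crebbp-labelled tumours it was 1.66 times as high and the ranges overlapped.

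Lin28b, the second let-7 blocker, was the member that separated the sets furthest. The Pomc-high Rb1/Trp53 tumours ranged from 5.47 to 10.9 CPM (median 7.63 CPM), and the Crebbp-labelled ones had 6.32, 7.07, 8.91 and 9.81 CPM. In the Calca-high tumours it had 0, 1 and 1 counts without the Crebbp label and 3, 2, 1 and 4 counts with it. Summed, the Pomc-high set had 932 counts and the Calca-high set 12 at nearly equal depth, a rate 77.8 times as high (95% exact interval 44.3 to 151, counting error only). No tumour of one set came near those of the other. A count of 0 in Calca-high Rb1/Trp53 tumour 1 allows up to 0.138 CPM on its gene total without the TMM scaling.

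By genotype Lin28b differed by 0.07 ± 0.20 on the log2 scale in the Pomc-high set (edgeR adjusted p = 0.874). In the Calca-high set it did not pass the low-count filter. When it was kept there, the difference was 2.35 (edgeR adjusted p = 0.0972), and it rests on 10 counts against 2. It entered the interaction fit only through its level in the Pomc-high set. The fitted interaction of genotype and set was 2.22 ± 0.70 (edgeR adjusted p = 0.0421), and 2 of 9 members, Lin28b and Igf2, were called there, against 22.9% of 15432 genes in either direction. For Lin28b its Calca-high side is 0 to 4 counts per library, so no difference between the sets is read from it, and the call was lost without Rb1/Trp53 tumours 1, 2 or 3 or Crebbp-labelled tumours 1, 4 or 5 (adjusted p = 0.0584 to 0.155).

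Hmga1 encodes an architectural protein of AT-rich chromatin. It ranged from 1.41 to 3.68 CPM in the Pomc-high Rb1/Trp53 tumours (median 2.61 CPM) and was 1.90, 1.47, 2.42 and 2.19 CPM in the Crebbp-labelled ones. The Calca-high tumours had 3.98, 4.29 and 4.11 CPM and, with the Crebbp label, 4.11, 2.57, 3.002 and 2.72 CPM. Within each genotype every Calca-high tumour lay above every Pomc-high one, by 1.57 and 1.401 times at the medians. The genotype difference was -0.34 ± 0.30 and -0.40 ± 0.24 (log2, edgeR adjusted p = 0.511 and 0.224), lower in both sets and past the threshold in neither. Hmga1 has near-identical copies in the mouse genome, so its level is uncertain where the counting could split reads.

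Hmga2, the other HMGA gene, had the opposite order between the sets. It ranged from 3.20 to 7.35 CPM in the Pomc-high Rb1/Trp53 tumours (median 5.76 CPM) and was 6.01, 6.41, 4.51 and 6.32 CPM in the Crebbp-labelled ones. The Calca-high tumours had 1.74, 1.90 and 3.26 CPM and, with the Crebbp label, 1.48, 1.90, 1.92 and 1.36 CPM. The Pomc-high medians were 3.04 and 3.66 times the Calca-high ones. The ranges touched among the Rb1/Trp53 tumours, through Calca-high tumour 4 at 3.26 CPM, and did not overlap among the Crebbp-labelled ones. By genotype Hmga2 differed by 0.11 ± 0.25 and -0.44 ± 0.32 (log2, edgeR adjusted p = 0.827 and 0.314). A pseudogene copy, Hmga2-ps1, stood at 0 to 1.02 CPM.

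Igf2 encodes the fetal growth factor for which the IGF2BP family is named. The Pomc-high Rb1/Trp53 tumours ranged from 7.25 to 15.6 CPM (median 12.02 CPM), and the Crebbp-labelled ones had 19.3, 6.34, 5.61 and 58.4 CPM. The last of these, tumour 8, stood far above the other 9 Pomc-high tumours. The Calca-high tumours had 4.03, 1.44 and 2.01 CPM and, with the Crebbp label, 0.316, 1.22, 0.447 and 0.532 CPM. All Pomc-high tumours lay above all Calca-high ones, and the medians over both genotypes differed by 9.83 times.

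In the Calca-high set Igf2 was lower in the Crebbp-labelled tumours without overlap (log2 fold change -1.92 ± 0.53 SE, a 3.78-fold fall, edgeR adjusted p = 0.0249). The Crebbp-labelled values rest on 3 to 20 counts and the Rb1/Trp53 values on 38 to 88. Igf2 passed the low-count filter of this fit through the Rb1/Trp53 tumours, the group where it is high, so little weight is put on the call. The call was lost without Rb1/Trp53 tumour 1 (-1.38, edgeR adjusted p = 0.0897) and without Crebbp-labelled tumours 1, 3 or 4 (adjusted p = 0.0556 to 0.0658). In the Pomc-high set the difference was 1.0 ± 0.61 (edgeR adjusted p = 0.340), and -0.11 without Crebbp-labelled tumour 8. The interaction, -2.88 ± 0.93 (edgeR adjusted p = 0.0377), was lost when any 1 of 9 tumours was left out (adjusted p = 0.0513 to 0.108). These were Rb1/Trp53 tumours 1, 2, 4 and 5 and Crebbp-labelled tumours 1, 3, 4, 5 and 8. The antisense gene Igf2as stood at 0 to 0.625 CPM, and since the strand setting of the counting is not given the pair cannot be told apart.

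H19, the imprinted non-coding RNA beside Igf2 that holds a microRNA in its first exon, varied widely within the groups. It ranged from 4.63 to 17.2 CPM in the Pomc-high Rb1/Trp53 tumours (median 9.97 CPM) and was 10.01, 5.67, 7.04 and 28.2 CPM in the Crebbp-labelled ones. The Calca-high tumours had 7.23, 0.417 and 3.11 CPM and, with the Crebbp label, 9.60, 17.5, 0.830 and 2.84 CPM. All 4 groups overlapped, and the genotype difference was 0.29 ± 0.49 and 1.12 ± 1.11 (log2, edgeR adjusted p = 0.757 and 0.461). Without Pomc-high Crebbp-labelled tumour 8 the first was -0.45.

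In the Calca-high tumours H19 moved with skeletal muscle genes. The summed level of 5 muscle markers, in the same order of tumours, was 893, 8.16 and 83.1 CPM and 129, 350, 3.39 and 9.05 CPM, with all 5 detected in both genotypes. Within each genotype the tumour with the least muscle RNA had the least H19 and the tumour with the most muscle RNA had the most. In the Pomc-high tumours, where the muscle sum was 2.76 to 40.6 CPM, H19 reached 28.2 CPM at a muscle sum of 5.43 CPM. The part of muscle RNA in the H19 level was not tested.

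Dlk1, a membrane protein of progenitor and endocrine cells, was higher in most Pomc-high than Calca-high tumours. It ranged from 35.3 to 176 CPM in the Rb1/Trp53 tumours (median 37.7 CPM) and was 49.8, 60.9, 56.7 and 233 CPM in the Crebbp-labelled ones. The Calca-high tumours had 0.961, 6.72 and 32.7 CPM and, with the Crebbp label, 8.33, 25.9, 30.6 and 61.3 CPM. Among the Rb1/Trp53 tumours every Pomc-high tumour lay above every Calca-high one, and among the Crebbp-labelled ones the ranges overlapped. By genotype the differences were 0.46 ± 0.68 and 1.26 ± 1.11 (log2, edgeR adjusted p = 0.725 and 0.408). The Pomc-high value turned to -0.38 without Crebbp-labelled tumour 8.

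The 3 Pomc-high tumours with the most Dlk1 also held RNA of other cells. Rb1/Trp53 tumours 6 and 8, at 176 and 125 CPM of Dlk1, had the highest summed levels of 8 markers of the other hormone cells of the anterior lobe, 14287 and 9904 CPM, where the other 4 had 11.3 to 3146 CPM. Crebbp-labelled tumour 8, at 233 CPM, had 48.1 CPM of these, but 369 CPM of 6 markers of pituicytes and astroglia, where the other 3 had 11.7 to 23.3 CPM. That tumour also had the least Pomc of its set. Among the Pomc-high Crebbp-labelled tumours it had the highest sums of choroid plexus and meninges (322 CPM), fibroblast and pericyte (264 CPM) and macrophage markers (186 CPM). It was not the highest for muscle or erythroid markers. Hormone-cell RNA and Dlk1 did not go together throughout. Rb1/Trp53 tumour 7, at 3146 CPM of the hormone-cell markers, had the least Dlk1 of the Pomc-high tumours, 35.3 CPM. Crebbp-labelled tumour 7, at 2344 CPM of them, had 56.7 CPM of Dlk1. In bulk RNA more cells of a type and more RNA per cell cannot be told apart, and the part of these cells in the Dlk1, Igf2 and H19 levels was not tested.

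**Figure D2:**
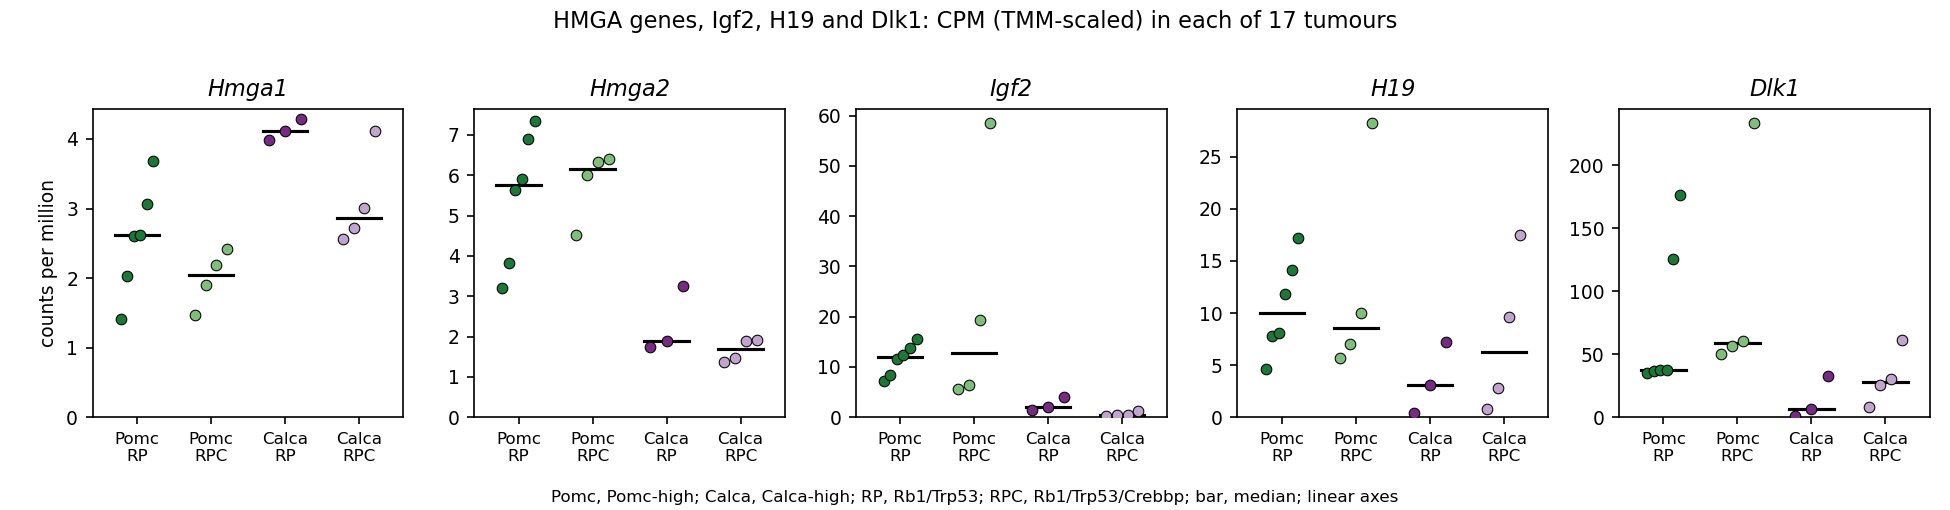
Level in CPM (linear axis, its own scale for each gene) of Hmga1, Hmga2, Igf2, H19 and Dlk1 in each of 17 tumours, by set and genotype (RP, Rb1/Trp53; RPC, Rb1/Trp53/Crebbp), with bars at the medians. At the medians of each genotype Hmga1 is higher and Hmga2, Igf2, H19 and Dlk1 are lower in the Calca-high tumours. Over both genotypes Igf2 alone of the genes shown has ranges that do not overlap between the sets. In the Pomc-high set 1 RPC tumour stands at the top for Igf2 (58.4 CPM), H19 (28.2 CPM) and Dlk1 (233 CPM).

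**Figure D3:**
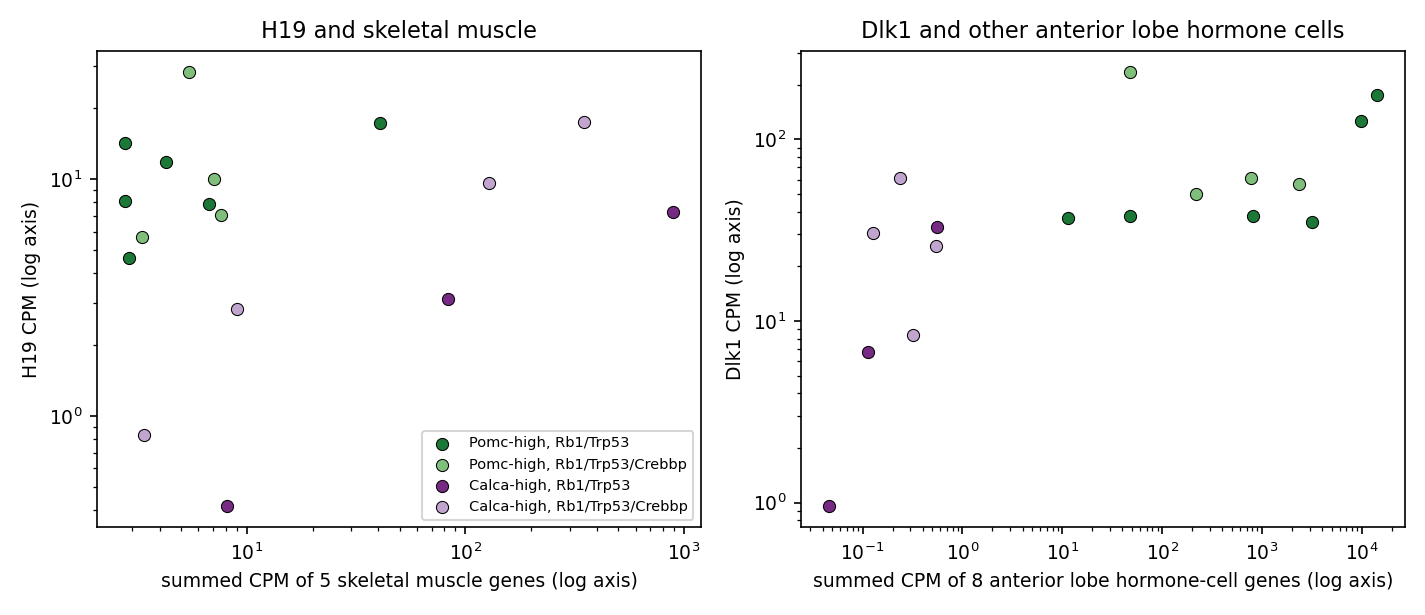
H19 against the summed level of 5 skeletal muscle genes (left) and Dlk1 against that of 8 genes of anterior lobe hormone cells other than Pomc cells (right), all in CPM on log axes, with 1 point per tumour coloured by set and genotype. In the Calca-high tumours H19 is lowest, 0.417 and 0.830 CPM, where muscle RNA is lowest within the genotype. Among the Pomc-high Rb1/Trp53 tumours, numbers 6 and 8 have the most hormone-cell RNA and the most Dlk1. Tumour 7, next in hormone-cell RNA (3146 CPM), has the least Dlk1 (35.3 CPM).

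**Figure D4:**
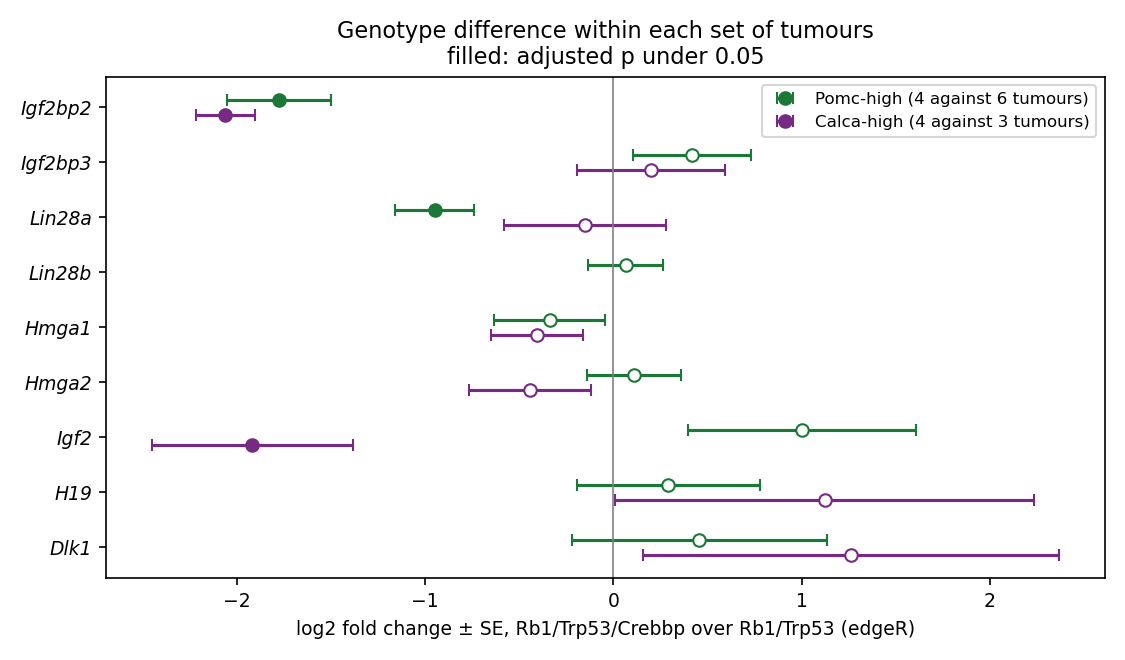
Log2 fold change, Rb1/Trp53/Crebbp over Rb1/Trp53, with its SE for the 9 members that could be tested in at least 1 set (edgeR), with Pomc-high tumours in green and Calca-high ones in purple. Filled points passed at an adjusted p under 0.05: Igf2bp2 at -1.77 and -2.06 in both sets, Lin28a at -0.95 in the Pomc-high set and Igf2 at -1.92 in the Calca-high set.

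Divided by exon length (the union of GENCODE vM21 exons, not the authors' annotation), the members can be set beside each other. In the Calca-high Rb1/Trp53 tumours Igf2bp2 had the highest median of the 10, 2.85 CPM per kb, and Hmga1 the next, 1.94 CPM per kb. The Igf2bp2 range of 2.73 to 3.50 CPM per kb lay apart from that of Hmga1 but overlapped those of H19 (0.170 to 2.94 CPM per kb) and Dlk1 (0.170 to 5.78 CPM per kb). Igf2bp3 stood there at 0.130 and Igf2bp1 at 0.0470 CPM per kb, and Lin28b was last at 0.00419 CPM per kb. In the Pomc-high Rb1/Trp53 tumours Dlk1 had the highest median at 6.66 CPM per kb, followed by H19 at 4.05, Igf2 at 2.10, Lin28a at 1.57, Hmga1 at 1.23, Hmga2 at 0.851, Lin28b at 0.842 and Igf2bp2 at 0.695 CPM per kb, and the ranges of all these neighbours overlapped.

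The Crebbp-labelled tumours had another order. In the Pomc-high ones Igf2bp2 fell to 0.203 CPM per kb, level with Igf2bp3 at 0.204, and both lay apart from Lin28a at 0.747 and from Igf2bp1 at 0.00987 CPM per kb. Lin28a, which stood above Lin28b in the Pomc-high Rb1/Trp53 tumours, lay below it at 0.747 against 0.882 CPM per kb, with overlapping ranges. In the Calca-high ones Igf2bp2 had a median of 0.751 CPM per kb, behind Dlk1 at 4.99, H19 at 2.53 and Hmga1 at 1.35 CPM per kb, with a range that overlapped that of H19.

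The genes around the members were taken from 7 lists. Over all tested genes 3.15% rose and 5.26% fell in the Pomc-high set, and 19.1% rose and 17.1% fell in the Calca-high set, 36.2% together. Of the IGF axis, the receptors, adaptors and binding proteins that carry the IGF signal, 2 of 17 tested genes fell and 0 rose in the Pomc-high Crebbp-labelled tumours. Stc2, a stanniocalcin that inhibits the protease releasing IGF from its binding proteins, fell by 0.79 ± 0.16, and Igf2r, the receptor that clears IGF2, fell by 0.69 ± 0.15 (log2, edgeR adjusted p = 0.00815 and 0.0135). With the Crebbp label in the Calca-high set 5 of 21 rose and 3 fell, a share near the 36.2% of all genes.

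The adaptors Irs4 and Irs1, which couple the IGF1 receptor to PI3K, were among those that rose. Irs4 went from 1.45 to 5.31 CPM in the Calca-high Rb1/Trp53 tumours to 38.7 to 59.5 CPM in the Crebbp-labelled ones (4.03 ± 0.44, edgeR adjusted p = 0.00135), and Irs1 from 3.19 to 4.76 CPM to 8.34 to 14.3 CPM (1.56 ± 0.24, adjusted p = 0.00286). Igfbp2, a binding protein of both IGFs, went from 0.607 to 2.75 CPM to 8.68 to 13.2 CPM (2.88 ± 0.50, edgeR adjusted p = 0.00454). At the median, genes of this list differed by -0.30 among Pomc-high and 0.34 among Calca-high tumours. For Irs4, Irs1 and Stc2 the interaction of genotype and set passed too (3.19 ± 0.55, 1.35 ± 0.25 and 2.02 ± 0.35, edgeR adjusted p = 0.00134, 0.00194 and 0.00109).

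Of the microRNA processing and let-7 control genes, 1 of 16 rose and 0 fell in the Pomc-high set, where Prkra, a partner of Dicer, rose by 0.43 ± 0.12 (edgeR adjusted p = 0.0425). Among Calca-high tumours 10 of 16 rose and 1 fell, against 19.1% and 17.1% of all genes, with a median of 0.34 beside -0.02 over all genes. The largest of those named was the Argonaute gene Ago2 (listed as Eif2c2), at 11.7 to 13.7 CPM in the Rb1/Trp53 and 39.9 to 65.7 CPM in the Crebbp-labelled tumours (2.04 ± 0.17, edgeR adjusted p = 7.27e-04). The uridylyl transferases Tut4 and Tut7 (listed as Zcchc11 and Zcchc6), which LIN28A recruits to let-7 precursors, rose by 0.68 ± 0.09 and 0.76 ± 0.11 (edgeR adjusted p = 0.00218 and 0.00256). For Eif2c2 and Zcchc6 the interaction passed (2.38 ± 0.36 and 0.97 ± 0.18, edgeR adjusted p = 5.06e-04 and 0.00179).

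Of the let-7 targets other than the members, 1 of 21 rose and 4 fell in the Pomc-high set, with a median of -0.15. The transcription factor genes Arid3a and Arid3b fell by 0.76 ± 0.14 and 0.72 ± 0.16, and the Ras gene Hras (listed as Hras1) rose by 0.45 ± 0.10 (log2, edgeR adjusted p = 0.00635, 0.0177 and 0.0207). The Calca-high set was split, and 5 of 21 rose and 4 fell (36.2% of all genes were called), with a median of 0.14. The cyclin gene Ccnd2 was 18.4 to 49.7 CPM in the Rb1/Trp53 and 9.07 to 12.7 CPM in the Crebbp-labelled tumours (-1.65 ± 0.31, edgeR adjusted p = 0.00602). Myc rose by 0.85 ± 0.17 (edgeR adjusted p = 0.00724).

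Of the imprinted genes other than the members, 1 of 31 rose and 3 fell in the Pomc-high set. Plagl1, a zinc finger factor of the imprinted gene network, fell from 304 to 394 CPM to 200 to 264 CPM (-0.60 ± 0.11, edgeR adjusted p = 0.00542), Igf2r is the gene given above, and the growth inhibitor Cdkn1c rose by 0.56 ± 0.15 (adjusted p = 0.0341). For the Calca-high tumours 5 of 31 rose and 6 fell, again near the 36.2% of all genes. Ppp1r9a and Ube3a rose by 0.63 ± 0.10 and 0.68 ± 0.12, and Sgce fell by 0.48 ± 0.08 (edgeR adjusted p = 0.00335, 0.00464 and 0.00431). The list medians were 0.09 and 0.02.

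IGF2BP proteins read N6-methyladenosine (m6A), and of the writers, erasers and other readers of that mark 0 of 18 passed in the Pomc-high set in edgeR, and 2 had an unadjusted p under 0.05. Among those of the Calca-high set 7 of 18 rose and 0 fell, against 19.1% of all genes that rose and 36.2% called in either direction. These included the eraser Alkbh5 (0.63 ± 0.09), the writer subunit Rbm15b (0.72 ± 0.12) and the reader Ythdc2 (0.70 ± 0.12), at edgeR adjusted p = 0.00261, 0.00364 and 0.00402. Of the mRNAs known to be bound by IGF2BP proteins, 0 of 7 passed in the Pomc-high set in edgeR (2 at an unadjusted p under 0.05). In the Calca-high set 3 of 8 rose and 0 fell, where 19.1% of all genes rose. The share called is near the 36.2% of all genes called in either direction. Those that rose include Myc as above and Mapk4 by 1.43 ± 0.40 (edgeR adjusted p = 0.0251).

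Of the other fetal and oncofetal genes, 1 of 9 rose and 1 fell in the Pomc-high set. Mdk, which encodes the fetal growth factor midkine, was 7.46 to 23.2 CPM in the Rb1/Trp53 and 63.4 to 109 CPM in the Crebbp-labelled tumours (2.83 ± 0.30, edgeR adjusted p = 5.47e-04). Mycn, a let-7 target, was 9.53 to 20.7 CPM and 5.37 to 8.91 CPM (-0.99 ± 0.23, edgeR adjusted p = 0.0207). Among Calca-high tumours 0 of 10 rose and 1 fell (36.2% of all genes were called, and 4 of the 10 had an unadjusted p under 0.05), the stem cell factor gene Sall4 (-0.61 ± 0.12, edgeR adjusted p = 0.00621). Mdk differed there by 1.63 ± 0.56 (edgeR adjusted p = 0.0528), and its interaction was -1.16 ± 0.62 (adjusted p = 0.188), so the midkine difference was not shown to belong to 1 set.

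Markers of other cells moved with the genotype beside these results. In the Calca-high set the 7 thyroid follicular genes summed to 2123 to 16905 CPM without and 930 to 1302 CPM with the Crebbp label, and 6 of 6 tested fell. Endothelial markers summed to 121 to 130 CPM and 62.4 to 87.9 CPM (7 of 9 fell), fat cell markers to 41.4 to 213 CPM and 9.11 to 14.5 CPM (4 of 5 fell), and lung epithelial markers to 208 to 357 CPM and 73.5 to 106 CPM (3 of 6 fell and 1 rose). C cell markers, Calca among them, summed to 118479 to 177564 CPM and 34943 to 67900 CPM (4 of 5 fell). Macrophage (3 of 9), choroid plexus and meninges (3 of 5), pituicyte and astroglia (2 of 4), fibroblast (1 of 10) and Pomc cell markers (1 of 4) also held genes that fell, and 1 Pomc cell marker rose. Of the 5 muscle markers and the 1 erythroid marker tested 0 passed in edgeR, and 0 had an unadjusted p under 0.05. Gh and Fshb had 0 counts in the Calca-high tumours, where no marker of the other anterior lobe hormone cells could be tested, and Hba-a1 had 0 in all 17.

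In the Pomc-high set fewer markers passed. Endothelial markers summed to 61.5 to 103 CPM without and 29.5 to 63.9 CPM with the Crebbp label (2 of 8 fell). Macrophage markers summed to 108 to 343 CPM and 28.5 to 186 CPM (1 of 9 fell), and fat cell markers to 8.12 to 17.03 CPM and 5.01 to 6.81 CPM (1 of 2 fell, with Plin1 and Lep at 0 in the Crebbp-labelled tumours). Of the 7 Pomc cell markers, 2 of 6 tested fell. Of 33 tested genes in the other 9 lists 0 passed in edgeR, and 8 had an unadjusted p under 0.05. The part of these cells in the genotype differences of Igf2bp2, Lin28a and Igf2 was not tested.

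The genes most like each member were sought among the 12024 genes that averaged 5 CPM or more, by Pearson's r of log2 CPM over the 17 tumours after each was centred on its set. The points share library and depth, and for members that passed by genotype they also share the genotype step, so r is a description. For Igf2bp2 they were Sdc4 (r = 0.9504), Prss53 (0.949) and Tspan1 (0.945). For Lin28a they were Npas2 (0.882), Hps5 (0.853) and AI414108 (0.850), and for Lin28b 9330159F19Rik (0.836) and Strbp (0.816).

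For Igf2 the likest genes were Cygb (r = 0.939), Abhd4 (0.892) and Fez2 (0.885), and for Dlk1 they were Vill (0.863), Jam3 (0.836) and Ptprz1 (0.834). H19 was most like Fam107b (0.827), and then like Myh1 (0.793) and Xirp2 (0.779), which skeletal muscle expresses. Hmga2 was most like Exosc7 (0.863), Btf3l4 (0.838) and Gtf2e2 (0.804), Igf2bp3 like Zfp647 (0.816), Hnrnpa3 (0.804) and Snrpa1 (0.766), and Hmga1 like Tmem199 (0.793), Spag7 (0.791) and Adrm1 (0.764). Among the 45 pairs of members, the highest r was 0.56, between Igf2bp1 and Igf2, and the lowest -0.51, between Igf2bp2 and Lin28b. Igf2bp1 had 0 to 3 counts per Pomc-high library and Lin28b 0 to 4 per Calca-high library, so both values rest partly on counts near 0.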

How the data were processed

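RNA from 17 mouse tumours was read from poly(A)-selected libraries made with an Illumina kit, per the labels' protocols. The submitters' processing notes name bcl2fastq 1.8.2, TopHat2 2.0.12, HTSeq 0.6.1 and the build mm9; annotation, strand setting and filters were not given in the sources used here. For each tumour the authors deposited raw counts of 23284 genes, which held 64.5% to 78.3% of the table, and 5 summary rows that name no gene and that entered neither library sizes nor tests. Gene totals were 8328297 to 28140755, so 1 CPM rests on about 8 to 28 reads.

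Counts were tested in R 4.3.3 with edgeR 4.0.16 (filterByExpr, TMM, robust quasi-likelihood F test, Benjamini-Hochberg over all tested genes, adjusted p under 0.05). A positive log2 fold change is higher in Rb1/Trp53/Crebbp, and its SE was taken from the F statistic (absolute log2 fold change over root F). Each set was fitted alone, and an interaction was tested over all 17 tumours. The fits were also run on simulated counts, and how well they recovered known changes is not reported here. None of the 64 pairs of tables within a genotype was a copy, with a chi-square of at least 8.30 times its degrees of freedom. The members, sets and the 7 gene and 13 marker lists were chosen with earlier results of these data known; their 236 entries all matched, 10 by synonym in the RefSeq table for GRCm38. From each list up to 3 called genes with the smallest adjusted p per fit are named, with others in single sentences; the rule for likeness names 3 genes per member with a mean of at least 1 CPM. Some genes that these rules name are not reported here. Sequences are from RefSeq and GENCODE vM21 (GRCm38), not the authors' build. Alternatives were RLE and upper-quartile scaling, no filter, a filter at 1 CPM, DESeq2 1.42.0, limma-voom (limma 3.58.1), a block for the tumour number, the set as a term and each tumour left out. Figures used matplotlib 3.10.9.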

Additional observations from a re-analysis of the deposited data

Results flagged for a closer look

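In 4 of the 30 groups of 4 to 6 tumours that were examined, 1 tumour's gap to its nearest neighbour took an unusual share of the group's range of log2 CPM; chance gives about 1 in 20 such groups. Igf2bp1 in Pomc-high Rb1/Trp53 tumour 6 stood at 0.320 CPM, 3 counts, with a gap of 0.733 of the range. Igf2bp2 in Calca-high Crebbp-labelled tumour 1 was low at 4.22 CPM (0.858 of the range), and the genotype call held without it. Lin28a in Pomc-high Rb1/Trp53 tumour 8 was low at 3.68 CPM (0.790). Dlk1 in Pomc-high Crebbp-labelled tumour 8 was high at 233 CPM (0.871). This is the tumour with 369 CPM of pituicyte and astroglia markers and the highest sums of its group for several other cell types.

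Igf2 and Lin28b passed in edgeR's test of the interaction of genotype and set, Calca-high minus Pomc-high. For Igf2 the value was -2.88 on the log2 scale (adjusted p = 0.0377), and the call was lost under several other settings. For Lin28b it was 2.22 (adjusted p = 0.0421), but the Calca-high libraries hold 0 to 4 counts of this gene, so no difference between the sets is read from it.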

How the results depend on the processing

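The Igf2bp2 call held in both sets under all alternatives run, at -1.84 to -1.73 and -2.11 to -2.03, and without any 1 tumour, at -1.96 to -1.57 and -2.13 to -1.95. The tumour numbers were checked for pairing: deviations of same-numbered tumours correlated at -0.13 to 0.22 in the Pomc-high and -0.16 to 0.14 in the Calca-high set. No pairing was seen within the sets, but so few pairs cannot exclude it. Over all 17 tumours r was 0.46 to 0.77 for numbers whose tumours share a set, and -0.65 for number 2, whose tumours do not. With the tumour number as a replicate block the Pomc-high set had 1 member called instead of 2, with Lin28a at -0.86 (edgeR adjusted p = 0.157). Under the block Dlk1 passed in the Calca-high set at 1.95 (edgeR adjusted p = 0.0369). There H19 also reversed to -0.24 in the Pomc-high set, Igf2 to -0.99 over all 17 tumours and Hmga1 to 0.15 in the interaction. Over all 17 tumours 1 member, Igf2bp2, was called with DESeq2, with the block and with the set as a term, instead of 0, Lin28b reversed to 0.31 with limma-voom and 0.34 with the set as a term, and Igf2 to -0.99 with limma-voom. The interaction called 1 member with DESeq2 and 0 without a filter, with limma-voom and with the block, instead of 2.

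Leaving out 1 tumour in turn gave 2 to 2 members called in the Pomc-high set, 1 to 2 in the Calca-high set, 0 to 0 over all 17 and 0 to 2 in the interaction, and 2 to 3 without overlap between the sets. Those runs turned values that passed no test: in the Pomc-high set Dlk1 (-0.38 to 0.90), H19 (-0.45 to 0.54), Igf2 (-0.11 to 1.31), Hmga2 (-0.0019 to 0.22) and Lin28b (-0.034 to 0.18); in the Calca-high set Igf2bp3 (-0.014 to 0.32) and Lin28a (-0.45 to 0.19); over all 17 Dlk1 (-0.36 to 0.75), H19 (-0.11 to 0.52) and Igf2 (-0.79 to 0.64); and in the interaction H19 (-0.043 to 1.85) and Hmga1 (-0.26 to 0.069). Igf2bp2 between the sets over both genotypes moved from -0.50 to -1.68 without any 1 of the 4 Calca-high Crebbp-labelled tumours.

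Over all genes, 1179 were called in the Pomc-high set (DESeq2 1917, block 354, without Crebbp-labelled tumour 7 752), 5355 in the Calca-high set (block 2700), 554 over all 17 (DESeq2 1397, set term 2575, 285 to 1010 with 1 tumour left out) and 3531 in the interaction (block 1253). The causes were not tested. Depth limits Igf2bp1 and, in the Calca-high set, Lin28b and Igf2.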
